A study of Mus musculus with 8 samples.

Results

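The cone opsins and the cone phototransduction proteins are encoded by 10 genes considered here, Opn1sw, Opn1mw, Gnat2, Gnb3, Gngt2, Pde6c, Pde6h, Cnga3, Cngb3 and Arr3, of the 18193 genes that the array annotation pairs with a probe set of their own. They were chosen by name, and every probe set annotated to one of them alone was taken, which gave 13 probe sets for 9 genes. Cnga3 was not analysed here. Retinal RNA of C57BL/6J mice was hybridised to 8 Affymetrix mouse genome-wide expression arrays, 2 each after 3, 7 and 14 days in 75% oxygen and 2 from control mice kept in room air (day 0). All mice were P80 to P120, were of this inbred strain with no engineered allele given, and lived in cyclic light of 5 lux. Per the study's methods each time point was a pool of retinas from several males and females, and whether separate pools were used for both arrays of a time is not given in the sources used here, so the p-values measure the spread between arrays, which may be technical.

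Cones are the photoreceptors of daylight and colour vision and make up a small minority of the mouse photoreceptor layer, which is dominated by rods. Light isomerises the retinal bound to a cone opsin, the opsin activates the cone transducin (Gnat2, Gnb3 and Gngt2 are its alpha, beta and gamma subunits), and transducin releases the phosphodiesterase Pde6c from its inhibitory subunit Pde6h. The phosphodiesterase breaks down cGMP, the channel formed by Cnga3 and Cngb3 closes, and cone arrestin, Arr3, ends the signal by binding the phosphorylated opsin. Mouse cones carry the short-wavelength opsin Opn1sw, the medium-wavelength opsin Opn1mw, or both, with the short-wavelength opsin more abundant in the ventral retina.

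The values are deposited log2 expression values in which each probe set was centred on its median over the 8 arrays, so 0 is that median, a difference of 1 is 2-fold, and no level can be read or compared between genes. No cone probe set differed between any 2 times after adjustment. At day 3 in oxygen the largest differences from control were on 1 probe set of Arr3 (-0.92 ± 0.24, SE, 2 arrays a time) and on Opn1sw (-0.74 ± 0.37 and -0.61 ± 0.30). The remaining probe sets of Arr3 differed by -0.46 ± 0.39 and -0.43 ± 0.25. Opn1mw differed by -0.15 ± 0.34 and Gnat2 by -0.08 ± 0.25. Pde6h and Cngb3 had positive differences, of 0.49 ± 0.32 and 0.35 ± 0.24 for the 2 probe sets of Pde6h and 0.44 ± 0.48 for Cngb3. The 2 arrays of a time were often as far apart as the times themselves, and the cone genes fell into sets that were high and low on different arrays.

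The RefSeq sequences upstream of the start are those of all 5 measured genes that had a promoter entry. Each is the 250 bases before the start in GRCm38.p6, written 5′ to 3′ on the strand of the gene, with capitals marking TAATC or its complement GATTA, the core recognised by the photoreceptor homeodomain factors CRX and OTX2.
Opn1sw, chr6:29380514-29380763, minus strand: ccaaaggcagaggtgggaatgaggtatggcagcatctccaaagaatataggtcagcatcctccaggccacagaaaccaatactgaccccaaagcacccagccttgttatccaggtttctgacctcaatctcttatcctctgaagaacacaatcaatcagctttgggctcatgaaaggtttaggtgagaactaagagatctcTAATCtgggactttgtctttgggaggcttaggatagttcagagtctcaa
Opn1mw, chrX:74127216-74127465, plus strand: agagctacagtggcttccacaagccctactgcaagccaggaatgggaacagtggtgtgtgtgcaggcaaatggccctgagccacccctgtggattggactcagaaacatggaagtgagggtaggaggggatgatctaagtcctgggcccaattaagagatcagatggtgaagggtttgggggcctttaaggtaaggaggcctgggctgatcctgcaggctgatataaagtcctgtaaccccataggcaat
Arr3, chrX:100605247-100605496, plus strand: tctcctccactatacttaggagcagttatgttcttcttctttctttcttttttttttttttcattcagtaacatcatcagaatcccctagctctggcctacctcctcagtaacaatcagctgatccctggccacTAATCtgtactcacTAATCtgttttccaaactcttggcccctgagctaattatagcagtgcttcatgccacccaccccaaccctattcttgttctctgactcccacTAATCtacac
Gnat2, chr3:108092816-108093065, plus strand: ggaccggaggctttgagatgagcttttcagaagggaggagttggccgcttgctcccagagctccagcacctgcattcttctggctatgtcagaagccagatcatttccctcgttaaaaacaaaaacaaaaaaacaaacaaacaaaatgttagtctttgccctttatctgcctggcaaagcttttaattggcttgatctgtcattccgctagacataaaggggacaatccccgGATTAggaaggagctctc
Pde6h, chr6:136954273-136954522, plus strand: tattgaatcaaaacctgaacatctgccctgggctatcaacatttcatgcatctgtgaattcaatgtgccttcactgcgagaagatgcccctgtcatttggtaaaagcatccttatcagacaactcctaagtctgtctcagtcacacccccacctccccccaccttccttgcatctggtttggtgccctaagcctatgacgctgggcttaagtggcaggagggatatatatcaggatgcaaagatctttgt

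Of the 10 genes, 6 matched an entry of the promoter table, and 5 of these were measured. The search used both strands, and the TAATC core was picked after the sequences had been seen. It was found in 3 of the 5 windows, and 19.8% of the 32851 windows of the same length in the table hold it. Arr3 held 3 copies, at 112 to 116, 98 to 102 and 6 to 10 bases before the start, Opn1sw held 1 at 45 to 49 bases, and Gnat2 held 1 at 14 to 18 bases on the opposite strand. The copy in Gnat2 was also the single match to the longer form TAATCC, which contains the core and lies in 6.25% of windows. Opn1mw had the letters TATAAA 23 to 28 bases before its start, a string found in 12.4% of windows, and Opn1sw had 2 copies of the nuclear receptor half-site AGGTCA, found in 14.0% of windows. The matches are descriptions of the letters and not of bound sites.

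A pair of arrays, day 3 replicate 2 and day 14 replicate 2, stood apart from the rest. They were the closest pair of all (1 - r = 0.26 over all probe sets), and the Gapdh probe set at the 3′ end minus that at the 5′ end, on the centred scale, was 1.19 on the first and 1.43 on the other, against -0.32 to 0.11 on the other 6 arrays. For beta-actin this difference was 1.003 and 1.243, against -0.94 to 0.44. The paper instead lists its highest Gapdh 5′/3′ ratios for both day 14 arrays, and reports that the day 3 replicates and the day 14 replicates clustered strongly. Here 1 - r was 1.13 between the arrays of day 3 and 0.82 between those of day 14. Whether the deposited arrays carry the paper's time labels was not tested, which limits every difference at days 3 and 14. The same pair had the highest medians of the Muller cell and gliosis genes (1.42 and 1.45, other arrays -0.28 to 0.07) and of the microglia and macrophage genes (1.08 and 1.09, other arrays -0.21 to 0.17), with all 12 and all 13 listed genes measured. Lens genes (13 of 14 measured) had medians between -2.50 on day 3 replicate 1 and 3.48 on day 7 replicate 2. Because of the centring, whether the markers of a cell type were present could not be read from these values. Across all 45037 probe sets tested with limma, 0% passed an adjusted p of 0.05 in each of the 6 comparisons between times and in the moderated F test over the 4 times, while 4649, 389 and 3726 had an unadjusted p under 0.05 at days 3, 7 and 14 against control. An ordinary one-way analysis of variance passed 2 probe sets at day 14 and 0 at days 3 and 7 against control. It takes the spread of each probe set from the compared arrays alone, so arrays of a time that are nearly equal can make a probe set pass without a large difference.

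Opn1sw, the short-wavelength opsin, was measured by 2 probe sets that followed each other closely (r = 0.91 over the 8 arrays). On 1418552_at the values were 0.01 and 0.51 in control, -0.20 and -0.76 after 3 days, -0.01 and 0.81 after 7 days and 0.01 and -0.66 after 14 days in oxygen. Both arrays of day 3 and both of day 14 lay below both control arrays, and the lowest 2 arrays were day 3 replicate 2 and day 14 replicate 2. The difference from control was -0.74 at day 3 (95% interval -1.63 to 0.14, limma adjusted p = 0.527), 0.14 at day 7 (adjusted p = 1) and -0.59 at day 14 (-1.47 to 0.30, adjusted p = 0.697). The day 14 value rested mostly on replicate 2, since replicate 1, at 0.006, lay only just below the lower control array at 0.011.

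On the other Opn1sw probe set, 1449132_at, the values were -0.06 and 0.30 in control, -0.22 and -0.77 after 3 days, 0.06 and 0.16 after 7 days and 0.07 and -0.71 after 14 days in oxygen. Day 3 again lay wholly below control, but day 14 overlapped it, with 1 array above the lower control array and 1 below both. Without day 3 replicate 2 the day 3 difference was -0.34 here and -0.46 on 1418552_at, and without day 14 replicate 2 the day 14 difference was -0.048 and -0.26. The differences from control were -0.61 ± 0.30 after 3 days, -0.01 ± 0.30 after 7 days and -0.44 ± 0.30 after 14 days (adjusted p = 0.527, 1 and 0.711). The highest array of 1418552_at, day 7 replicate 2, was the array with the highest lens median, and the part of other tissue in these values was not tested.

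Opn1mw, the medium-wavelength opsin, was measured by 1419723_at. Its values were -0.12 and 0.02 in control, 0.18 and -0.58 after 3 days, -0.02 and 0.15 after 7 days and 0.49 and -0.38 after 14 days in oxygen. The 2 arrays of day 3 fell on opposite sides of control, as did those of day 14, so that the means hid spreads of 0.77 and 0.88 within a time. The difference from control was -0.15 at day 3 (95% interval -0.97 to 0.67), 0.12 at day 7 and 0.11 at day 14 (-0.71 to 0.93), with adjusted p of 0.9, 1 and 0.942. Whether the 2 opsins differed in their response was not tested.

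Gnat2, the alpha subunit of cone transducin, had 0.05 and -0.05 in control, 0.26 and -0.42 after 3 days, 0.05 and -0.12 after 7 days and 0.09 and -0.34 after 14 days in oxygen. Its lowest 2 arrays were those on which both opsins were lowest, and its highest array was the other array of day 3. The differences from control stayed between -0.12 and -0.03, with SE 0.25, and at day 3 the interval was -0.68 to 0.53, which leaves out a 2-fold change in either direction.

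Gnb3, the beta subunit, which ON bipolar cells also express, had the smallest spread of the 13 probe sets, an SD of 0.16 over the 8 arrays. It had -0.18 and 0.05 in control, -0.23 and 0.19 after 3 days, -0.01 and 0.09 after 7 days and -0.25 and 0.01 after 14 days in oxygen, with replicate 2 the higher of the 2 arrays at every time. Its differences from control were 0.05, 0.10 and -0.05 at days 3, 7 and 14 (SE 0.19), and the interval at day 3 was -0.41 to 0.51.

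Gngt2, the gamma subunit, had 0.19 and -0.16 in control, 0.73 and -0.01 after 3 days, 0.01 and -0.29 after 7 days and -0.03 and 0.23 after 14 days in oxygen. A single array, day 3 replicate 1, was high, and the other array of day 3 lay between the 2 control arrays. The day 3 difference from control, 0.35 ± 0.27 (adjusted p = 0.671), was -0.02 without that array.

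Pde6c, the catalytic subunit of the cone phosphodiesterase, was within 0.19 of its median on 7 of the 8 arrays. The values were -0.03 and -0.03 in control, -0.03 and 0.15 after 3 days, 0.19 and -0.54 after 7 days and 0.03 and 0.05 after 14 days in oxygen. Only day 7 replicate 2 was far from the rest. Days 3 and 14 lay above both control arrays, which were 0.001 apart, by differences of the means of 0.09 ± 0.24 and 0.07 ± 0.24, and at day 7 the difference was -0.15 ± 0.24.

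Pde6h, the inhibitory subunit, was measured by 2 probe sets with nearly the same course (r = 0.99 over the 8 arrays). On 1450765_a_at the values were 0.12 and -0.38 in control, 0.74 and -0.01 after 3 days, -0.20 and -0.79 after 7 days and 0.01 and 0.03 after 14 days in oxygen. Both arrays of day 7 lay below both of day 3, while every hyperoxia time overlapped control. The day 3 difference from control, 0.49, was 0.12 without replicate 1 of day 3 and 0.87 without replicate 2. On 1450766_at the values were 0.08 and -0.32 in control, 0.46 and 0.00 after 3 days, -0.19 and -0.65 after 7 days and 0.00 and 0.02 after 14 days in oxygen. The difference of day 7 against day 3 was -0.86 ± 0.32 on the first (unadjusted p = 0.0319, limma adjusted p = 0.373) and -0.66 ± 0.24 on the other (unadjusted p = 0.0304, adjusted p = 0.371), larger than the gap between the 2 arrays of either time. Neither passed the adjusted test, and both probe sets report the same gene on the same arrays.

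Cngb3, the modulatory subunit of the cone channel, had the widest range, 1.85 on the log2 scale. The values were 0.14 and -0.14 in control, 1.09 and -0.20 after 3 days, 0.14 and -0.76 after 7 days and 0.37 and -0.17 after 14 days in oxygen. Replicate 1 was above replicate 2 at every time, and the 2 arrays of day 3 were 1.30 apart, the 1 above and the other below both control arrays. The difference at day 3 was 0.44 with an interval of -0.69 to 1.58, which leaves room for a 2-fold higher level as well as for none, and it was -0.31 at day 7 and 0.10 at day 14 (adjusted p = 0.756, 1 and 0.961).

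Arr3, cone arrestin, was measured by 3 probe sets. On 1425232_x_at, whose suffix marks probes that may also match other sequences, the values were 0.16 and 0.49 in control, -0.31 and -0.87 after 3 days, 0.41 and 0.18 after 7 days and -0.16 and -0.49 after 14 days in oxygen. Days 3 and 14 lay wholly below days 0 and 7, which overlapped each other. The difference from control was -0.92 at day 3 (95% interval -1.49 to -0.35, a ratio of 0.529, unadjusted p = 0.00683, limma adjusted p = 0.471), -0.03 at day 7 and -0.65 at day 14 (-1.22 to -0.08, a ratio of 0.636, unadjusted p = 0.0304, adjusted p = 0.566). The difference of day 7 against day 3 was 0.88 ± 0.24 (adjusted p = 0.347), and that of day 14 against day 7 was -0.62 ± 0.24 (adjusted p = 0.468). In the limma F test over the 4 times it had an adjusted p of 0.561, and it was the 1 cone probe set of 13 with an unadjusted p under 0.05, as 8.09% of all probe sets were.

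The other Arr3 probe sets had smaller differences in the same direction at days 3 and 14. On 1450329_a_at the values were 0.01 and 0.22 in control, -0.04 and -0.58 after 3 days, 0.26 and -0.01 after 7 days and 0.17 and -0.32 after 14 days in oxygen, so that day 3 lay below control and day 14 overlapped it. On 1441144_at the values were 0.21 and 0.37 in control, 0.00 and -0.32 after 3 days, 0.77 and -0.54 after 7 days and 0.00 and -0.12 after 14 days in oxygen. There days 3 and 14 lay below control, but the 2 arrays of day 7 were the highest and the lowest of all, 1.30 apart. The differences at day 3 were -0.43 ± 0.25 and -0.46 ± 0.39, and at day 14 they were -0.19 ± 0.25 and -0.35 ± 0.39 (adjusted p between 0.574 and 0.839). In RNA of whole retina, fewer cones and less Arr3 or opsin RNA per cone cannot be told apart.

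**Figure D1:**
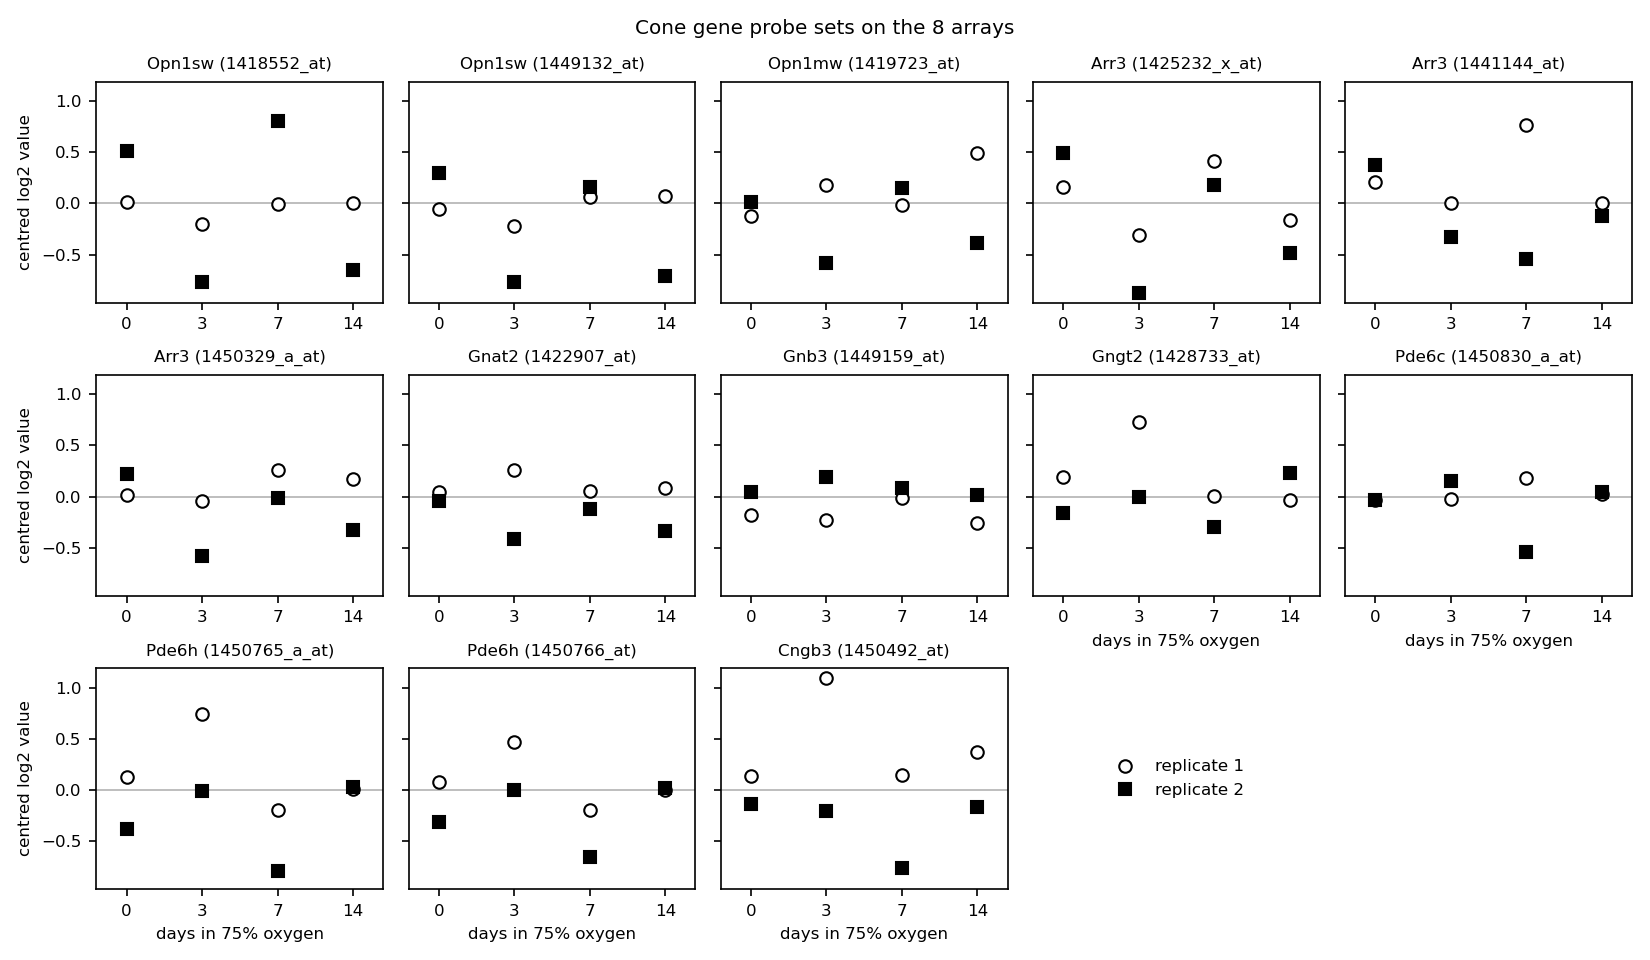
Centred log2 values (vertical axis) of the 13 cone gene probe sets by days in 75% oxygen (horizontal axis, day 0 is control), with 1 point for each of the 2 arrays of a time, open circles for replicate 1 and filled squares for replicate 2. Opn1sw, Opn1mw and Gnat2 are lowest on the filled squares of days 3 and 14, whereas Gngt2, Pde6h and Cngb3 are highest on the open circle of day 3 and lowest on the filled square of day 7.

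Over the whole pathway the differences from control ran both ways. At day 3, 7 of the 13 probe sets were lower than control and 6 higher, with a median of -0.08 and a range of -0.92 to 0.49, beside a median of 0.04 over all probe sets, of which 44.6% were lower. At day 7, 9 were lower and 4 higher (median -0.03, range -0.36 to 0.14, all probe sets -0.003 and 50.7% lower). At day 14, 7 were lower and 6 higher (median -0.05, range -0.65 to 0.15, all probe sets 0.05 and 42% lower). Without day 3 replicate 2 and day 14 replicate 2 the medians were 0.002 at day 3 and 0.055 at day 14, and without the other array of those times they were -0.42 and -0.33, so the sign of the median rested on which array was kept.

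An unadjusted p under 0.05 was found for 1 of the 13 probe sets at day 3 (Arr3, lower, where 5.49% of all probe sets were lower at that p) and for 1 at day 14 (the same Arr3 probe set, lower, background 5.13%). Both arrays lay below both control arrays for 5 probe sets at day 3, the 2 of Opn1sw and the 3 of Arr3 (background 17.8%), and above them for 1, Pde6c (background 24.7%). At day 14 they lay below for 3, of Opn1sw and Arr3 (background 18.3%), and above for 1, Pde6c (background 27.7%). At day 7 all 13 overlapped control, where 12.3% of all probe sets lay below and 12.3% above. None of the 13 had group means 2-fold apart from control at day 3, 7 or 14 (background 1.53%, 0.293% and 2.11%). Against day 3, day 7 had 2 lower probe sets at an unadjusted p under 0.05, both of Pde6h (background 6.31%), and 1 higher, of Arr3 (background 5.78%), and against day 7, day 14 had 1 lower, of Arr3 (background 5.61%). Between days 14 and 3, all 13 had an adjusted p of 0.998.

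The arrays limit what could be detected. The SE of a difference ran between 0.19 and 0.48, and the 95% interval lay wholly within a 2-fold change for 5 of the 13 probe sets after 3 days, for 9 after 7 days and for 8 after 14 days. The median gap between both arrays of a time was 0.28 in control, 0.56 after 3 days, 0.30 after 7 days and 0.32 after 14 days, and the difference from control was larger than the gap at either time for 4 probe sets after 3 days (of Opn1sw and Arr3), for 0 after 7 days and for 3 after 14 days (of Arr3 and Pde6c). The share over all probe sets was not worked out for the interval counts or the gap counts, so neither sets the cone genes apart. The SD over the 8 arrays was between 0.16 and 0.54 with a median of 0.34, beside 0.21 for all probe sets.

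**Figure D2:**
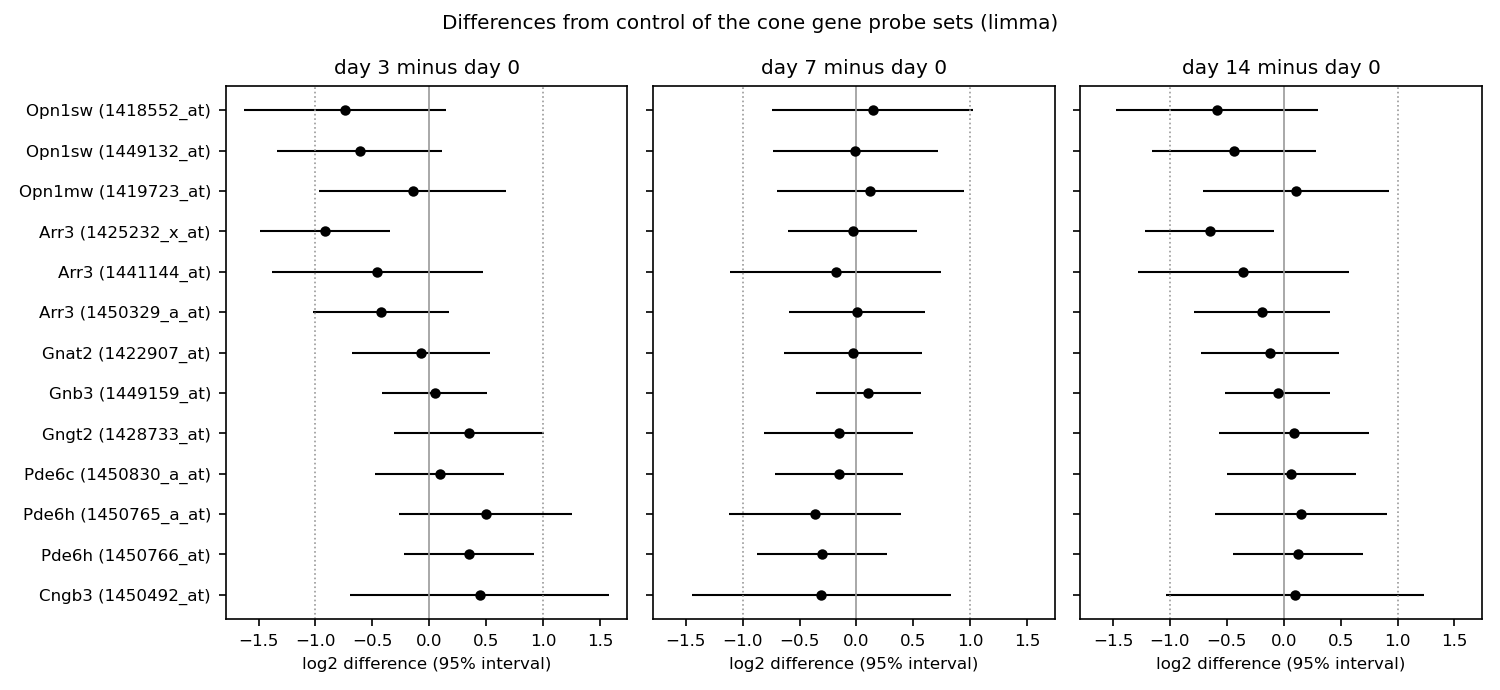
Log2 difference from control (horizontal axis, hyperoxia minus day 0) of each of the 13 cone gene probe sets (vertical axis) after 3, 7 and 14 days, with the limma 95% interval as bars and dotted lines at a 2-fold change. The interval leaves out 0 only for Arr3 1425232_x_at, at day 3 (-1.49 to -0.35) and at day 14 (-1.22 to -0.08), and neither has an adjusted p under 0.05.

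The cone genes did not move as 1 group across the arrays. The 7 probe sets of Opn1sw, Opn1mw, Arr3 and Gnat2 had a correlation over the 8 arrays between 0.06 and 0.92 in their 21 pairs (median 0.65), and the 4 of Gngt2, Pde6h and Cngb3 had 0.84 to 0.99 in 6 pairs (median 0.91). Between the 2 sets it ran between -0.68 and 0.71 in 28 pairs (median -0.10, 18 of them negative). Pairs within a set included 5 of the same gene (r between 0.60 and 0.99, the highest for Pde6h), and pairs between the sets included none. Gnb3 and Gnat2, both subunits of cone transducin, had r = -0.81. This pair is named because it had the lowest r of all 78 pairs, and Gnb3 had the smallest spread of the cone probe sets. The 2 sets were picked after the values had been seen, all values share the same 8 arrays and their normalization, and the correlations are descriptions.

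The sets differed in which arrays they set apart. Day 3 replicate 2 and day 14 replicate 2 were the 2 lowest arrays for 6 of the 13 probe sets (both of Opn1sw, 2 of Arr3, Opn1mw and Gnat2), where this held for 9.61% of all probe sets. These are the arrays with the large 3′ minus 5′ difference of Gapdh and beta-actin, and its part in the low values was not tested. Day 7 replicate 2 was the lowest array for 6 others (1 of Arr3, Gngt2, Pde6c, both of Pde6h and Cngb3, background 18.0%). Day 3 replicate 1 was the highest for 5 (Gnat2, Gngt2, both of Pde6h and Cngb3, background 18.1%).

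**Figure D3:**
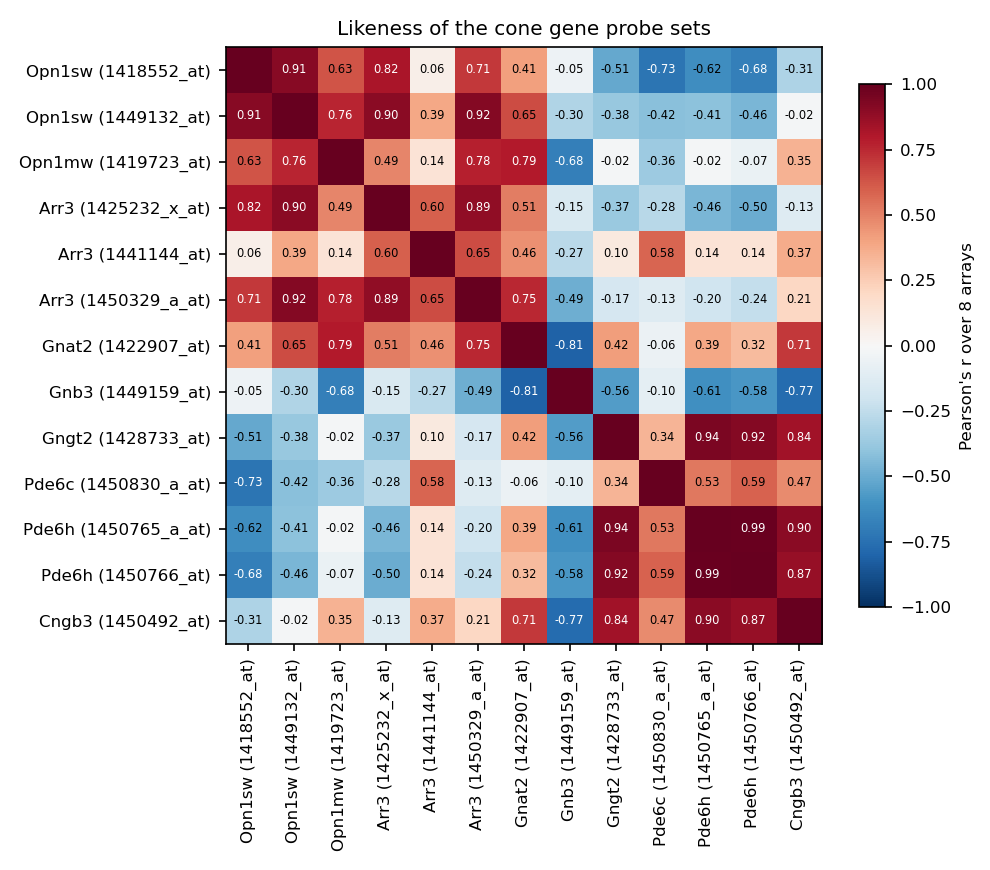
Pearson's r over the 8 arrays for each pair of the 13 cone gene probe sets, in the same order on both axes, with red for positive and blue for negative r. Gngt2, Pde6h and Cngb3 form a block at the lower right with r between 0.84 and 0.99, where 0.99 joins both probe sets of Pde6h. Their r with the 7 probe sets of Opn1sw, Opn1mw, Arr3 and Gnat2 runs between -0.68 and 0.71.

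Rods use a paralogous set of proteins, and 9 of 10 listed rod counterparts were measured, by 15 probe sets. Their median difference from control was -0.27 after 3 days, -0.02 after 7 days and -0.14 after 14 days, and none passed the adjusted test. After 3 days 11 were lower and 4 higher, where 44.6% of all probe sets were lower. The median over the rod genes was -0.29 and -0.36 on the 2 arrays of day 3, against 0.01 and 0.04 at day 0, while the median over the cone genes was 0.18 and -0.20 at day 3, against 0.05 and -0.03. At day 14 the rod median was 0.04 on replicate 1 and -0.31 on replicate 2, so the day 14 difference lay on the array with the large 3′ minus 5′ difference. The paralog pairs were alike in some places and not in others. Gngt1, the rod gamma subunit, had 0.84 (1425167_a_at), 0.81 (1425219_x_at) and 0.58 (1451633_a_at) on day 3 replicate 1, the array on which Gngt2 was highest. Its remaining probe set, 1425168_at, had 0.31 on that array and was highest on day 0 replicate 2 (0.78). Pde6g, the inhibitory subunit of the rod enzyme, had -0.36 and -0.23 on day 3 replicate 1 on its 2 probe sets, where those of Pde6h had 0.74 and 0.46. Gnat1, rod transducin alpha, had -0.42 there, where Gnat2 had 0.26. Sag, rod arrestin, differed from control by -0.12 at day 3. Differences between the rod and the cone genes were not tested.

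Photoreceptor genes of light response recovery and calcium feedback were below control on most probe sets at days 3 and 14, but none passed the adjusted test. Of the 18 probe sets of the recovery and calcium feedback genes (13 of 14 genes measured), 15 were lower than control at day 3 (median -0.36) and 16 at day 14 (median -0.27), where 44.6% and 42% of all probe sets were lower. At an unadjusted p under 0.05, 5 were lower (background 5.49%) and 1 higher (background 4.83%) at day 3, and 3 were lower (background 5.13%) and 1 higher (background 3.14%) at day 14. Some of the 18 report the same gene on the same arrays. The median over these genes was -0.26 and -0.23 on the arrays of day 3 and -0.008 and -0.21 on those of day 14, against 0.06 and 0.13 in control. At day 14 most of the shift thus lay on replicate 2, an array with the large 3′ minus 5′ difference and the high gliosis median, whose part was not tested. Guca1b, a calcium sensor of guanylate cyclase, had -0.54 and -0.24 after 3 days and -0.60 and -0.37 after 14 days, against 0.38 and 0.41 in control, which gave differences of -0.79 ± 0.16 and -0.88 ± 0.16 (limma adjusted p = 0.471 and 0.386). Rgs9, which speeds the shut-off of transducin and is abundant in cones, differed by -1.19 ± 0.34 at day 3 and -1.20 ± 0.34 at day 14, and its membrane anchor Rgs9bp by -1.12 ± 0.28 and -1.02 ± 0.28 (adjusted p between 0.462 and 0.472). These genes and their probe sets were named for the smallest F p-value of their list, so their separation from control follows partly from that choice.

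Among the transcription factors that direct cone and photoreceptor identity (11 of 12 measured), 22 of 26 probe sets were lower than control at day 3 (median -0.40) and 21 at day 14 (median -0.50), where 44.6% and 42% of all probe sets were lower. At day 7, 8 were lower (median 0.05), where 50.7% of all probe sets were. An unadjusted p under 0.05 in the lower direction was found for 10 of the 26 at day 3 (background 5.49%) and for 10 at day 14 (background 5.13%). Several of the 26 report the same gene on the same arrays, so they are not separate members. The median over these genes was -0.37 and -0.23 on the arrays of day 3 and -0.09 and -0.44 on those of day 14, against 0.13 and 0.21 in control. The lower value at day 14 was that of replicate 2, an array with the large 3′ minus 5′ difference, whose part was not tested. Rorb, a nuclear receptor, had -0.58 and -0.77 after 3 days and -0.30 and -1.51 after 14 days, against 0.30 and 0.30 in control. Rora, a related receptor, differed by -0.76 ± 0.18 at day 3 and -0.91 ± 0.18 at day 14, and Neurod1, a basic helix-loop-helix factor of photoreceptors, by -0.50 ± 0.16 and -0.76 ± 0.16. Sall3, a zinc-finger factor with a role in mouse short-wavelength cones, differed by 0.28 ± 0.12 at day 3 and -0.01 ± 0.12 at day 14. For each of these genes only the probe set with its smallest F p-value is shown, and any other probe set may differ. The genes were also named for the smallest F p-value of the list, so their separation follows partly from that choice. None of the 26 passed the adjusted test against control (lowest adjusted p 0.405).

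The visual cycle genes (12 of 13 measured, 17 probe sets) return the chromophore to the opsins. They were lower than control on all 17 probe sets after 3 days (median -0.32), on 4 after 7 days (median 0.19) and on 8 after 14 days (median 0.17). Of all probe sets, 44.6%, 50.7% and 42% were lower at those times. Rbp3, the retinoid carrier between photoreceptors and their neighbours, differed by -0.94 ± 0.24 at day 3 and -1.07 ± 0.24 at day 14 (adjusted p = 0.471 and 0.412). It had the smallest F p-value of the list, followed by Rlbp1, Rdh10 and Stra6. At days 3 and 14 Rlbp1 differed by -0.43 ± 0.14 and -0.24 ± 0.14. Rdh10 differed by -0.31 ± 0.40 and 0.475 ± 0.40, and Stra6 by -0.30 ± 0.60 and 0.66 ± 0.60. Several genes of this list belong to the pigment epithelium, whose own list had medians between -0.86 on day 3 replicate 2 and 0.86 on day 14 replicate 1 (10 of 10 measured), and the part of that tissue was not tested. The cone bipolar cells, which receive cone signals, had list medians between -0.28 and 0.17 over the arrays (6 of 7 measured), and the ON bipolar genes between -0.11 and 0.13 (7 of 8). Cornea and conjunctiva genes (8 of 8 measured) had medians between -1.19 and 2.02.

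**Figure D4:**
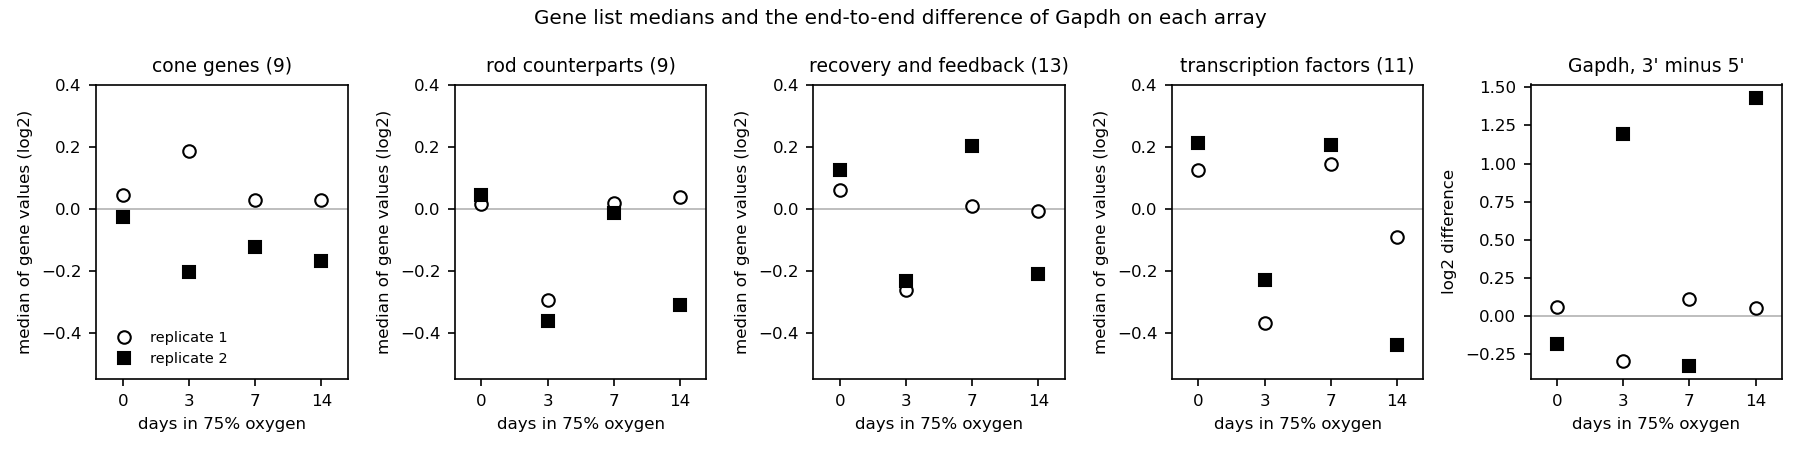
Median of the gene values on each array (vertical axes, centred log2) for the cone genes, the rod counterparts, the recovery and calcium feedback genes and the transcription factors, and the Gapdh 3′ minus 5′ log2 difference, by days in 75% oxygen, with open circles for replicate 1 and filled squares for replicate 2. The cone genes are split at day 3 (0.18 and -0.20), where the other lists are low on both arrays, and Gapdh is at 1.19 and 1.43 on day 3 replicate 2 and day 14 replicate 2.

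The genes most like the cone genes over the 8 arrays were looked for among 11501 probe sets of other genes whose SD was at least 0.3. Closest to the mean of the 9 cone genes were Smc4, Pus3 and Faim (r = 0.96 each). Closest to Opn1sw were Edem2 (r = 0.995), Ammecr1l (0.993) and Ddhd1 (0.992), and all 3 were lowest on day 3 replicate 2 and day 14 replicate 2, as Opn1sw was. Closest to Opn1mw were Orc2 (r = 0.969), Pip5k1b (0.947) and Faf1 (0.942). None of the 9 is a gene of the pathway lists, and with 8 values searched over so many probe sets such likeness is a description of these arrays.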

How the data were processed

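Retinal RNA was labelled and hybridised to 8 arrays, which were grouped by the day in each label. The authors deposited log2 values from RMA (version not stated), and each probe set has a median of 0 over the 8 arrays within 1e-06. Setting aside 64 control probe sets left 45037 for the tests. Gene names came from the platform annotation (34945 probe sets naming 1 gene, 932 several and 9160 none). Group means of the 4 times were estimated by limma 3.58.1 (lmFit, eBayes, R 4.3.3, with 4 residual and 2.71 prior degrees of freedom), and all p-values of a comparison went through the Benjamini-Hochberg adjustment together, with a threshold of 0.05. Medians, correlations and motif counts used pandas 2.3.3 and numpy 2.4.6 under Python 3.11.15.

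Every cone probe set is named. Other names came from the 4 genes with the smallest F p-value in each pathway list, from rod paralogs of the cone genes, and from the 3 genes most like each of 3 patterns. A gene named for its F p-value is shown by the probe set that gave it. The members and lists were chosen with earlier results of these data known. Filters and probe set choices that need a signal level could not be made. The fit was tested on simulated data. Alternatives were a further quantile normalization, array medians subtracted, a replicate block, robust eBayes, the compared groups alone, each array left out in turn (the lone array being taken to vary as other groups do), the arrays day 3 replicate 2 and day 14 replicate 2 left out together, genes in place of probe sets, 1 probe set a gene, no _x_at, _s_at or _a_at probe sets, and an ordinary one-way analysis of variance of the compared times over all probe sets, which lacks the cross gene error model and the fold criterion of the study's own. The number of arrays limits the precision. Quantitative PCR and histology were not analysed here.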

Additional observations from a re-analysis of the deposited data

How the results depend on the processing

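The 39 differences of single cone probe sets from control gave 309 values under the alternatives that left out no single array, of which 299 kept their sign, and none of their adjusted p-values was under 0.05 (lowest 0.208 over all alternatives). The further quantile normalization turned day 7 of Opn1sw to -0.008 on 1418552_at and 0.005 on 1449132_at, and genes as means of probe sets turned day 7 to 0.066 for Opn1sw and -0.069 for Arr3. Leaving out day 3 replicate 2 and day 14 replicate 2 together turned day 3 to 0.24 for Opn1mw, 0.26 for Gnat2 and -0.16 for Gnb3, and day 14 to 0.058 for Arr3 1450329_a_at, 0.087 for Gnat2 and -0.041 for Gngt2. The cause of these turns was not tested. With 1 array left out, 32 of 312 values turned, in 23 of the 39 differences. Some kept their sign but moved by over 1.5 times. Without day 3 replicate 2, day 3 of Opn1sw was -0.463 and -0.336, and without day 14 replicate 2 its day 14 was -0.256 and -0.048. Without day 3 replicate 1, day 3 of Pde6h was 0.121 and 0.118. For differences that turned, the range over the arrays left out was, at day 3, -0.53 to 0.24 for Opn1mw, -0.42 to 0.26 for Gnat2, -0.16 to 0.26 for Gnb3, -0.021 to 0.72 for Gngt2 and -0.20 to 1.09 for Cngb3. At day 7 it was -0.27 to 0.55 and -0.19 to 0.17 for the 2 probe sets of Opn1sw, -0.20 to 0.13, -0.83 to 0.47 and -0.13 to 0.14 for those of Arr3, -0.12 to 0.052 for Gnat2, -0.011 to 0.22 for Gnb3, -0.33 to 0.021 for Gngt2, -0.52 to 0.21 for Pde6c and -0.76 to 0.14 for Cngb3. At day 14 it was -0.33 to 0.55 for Opn1mw, -0.44 to 0.058 for Arr3 1450329_a_at, -0.34 to 0.087 for Gnat2, -0.19 to 0.081 for Gnb3, -0.088 to 0.27 for Gngt2, -0.10 to 0.40 and -0.071 to 0.32 for Pde6h and -0.17 to 0.37 for Cngb3.

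The median over the cone probe sets with 1 array left out ran between -0.42 and 0.002 after 3 days, -0.15 and 0.052 after 7 days and -0.33 and 0.055 after 14 days, and it was 0.049, -0.069 and 0.066 with genes as means of probe sets. Over all probe sets, 0 to 1 passed the adjusted test of day 7 against days 0 and 3, of day 14 against day 7 and of the F test with 1 array left out, the 1 without day 7 replicate 1, and it was no cone probe set. The ordinary one-way analysis of variance passed 2 for day 14 against control, 1 for day 7 against day 3 and 1 for day 14 against day 7, and the other alternatives passed 0 in every comparison. Arrays with the same replicate number deviated together between days 3 and 14 (r of their deviations 0.55) and between days 0 and 7 (0.44) and in opposite ways for the other 4 pairs of times (-0.40 to -0.22), so the numbers were not taken to pair the arrays. A fit with the replicate number as a block left the medians at -0.076, -0.034 and -0.052 and passed 0 probe sets. The values hold no signal over background, so weakly detected probe sets could not be told from strongly detected ones.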
